A study of Mus musculus with 20 samples.

Results

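The PAR bZIP factors are 3 transcription factors of the mouse, encoded by Tef (thyrotroph embryonic factor), Hlf (hepatic leukemia factor) and Dbp (D site of albumin promoter binding protein). These 3 genes were followed here, chosen by name as the whole of this family, among 26830 genes with a count in fetal liver. The family and the gene lists below were chosen with earlier results of these data known, so their counts are descriptions. Messenger RNA came from the right lobe of the liver, taken at embryonic day 18.5 from 20 male fetuses of CD-1 IGS mice, an outbred strain. Fetuses of the MNR group came from dams under maternal nutrient restriction, and fetuses of the control group came from dams without it. Each group held 10 fetuses from 5 litters, 2 littermates per litter, and litters are named here by group and letter. Litters that share a letter across the groups come from different dams. The diet was imposed on the dam, so the litter is the replicate, and the counts of its 2 littermates were added. The sources used here do not give the kind and degree of the restriction or the time of day of collection. For genes with a daily rhythm, the diet and an unequal collection time between the groups therefore cannot be told apart. The labels name no allele or agent beside the diet.

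PAR bZIP proteins bind the D-box, a palindromic DNA element, as dimers and activate transcription there. In adult liver the clock activators CLOCK and BMAL1 drive their genes through E-boxes, the PAR bZIP proteins then pass the daily rhythm on to genes of drug, lipid and bile acid metabolism, and the related repressor NFIL3 competes for the same D-boxes. HLF is in addition known as a marker of blood stem cells, which the fetal liver harbours before birth, and TEF was first described in the embryonic pituitary.

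The regulatory letters before the annotated starts of the 3 genes are shown because the clock is known to reach this family through such elements. They are RefSeq sequences of the mouse build GRCm38.p6, 5′ to 3′ on the strand of the gene, and positions count back from -1, the base before the RefSeq start. All 3 members were matched by symbol, Tef with 2 promoters, and each of the 4 windows of 250 bases was found once, unaltered, in the mm9 genome of the deposited files. Capitals mark motif matches. In the Tef windows the CACGTG run is the E-box, in the Tef and Dbp windows CCAAT or its reverse ATTGG is the CCAAT box, and in the Hlf window TGACGTCA is the cyclic AMP response element (CRE). The upstream Tef promoter lies inside the first exon of the longer transcript Tef-001, so only the 30 bases around its E-box are given, and the Dbp window is given up to the annotated start of Dbp-001.
Tef upstream promoter, chr15:81802535-81802564, plus strand: tgctgtggctcCACGTGctgcagctggcac
Tef downstream promoter, chr15:81811164-81811413, plus strand: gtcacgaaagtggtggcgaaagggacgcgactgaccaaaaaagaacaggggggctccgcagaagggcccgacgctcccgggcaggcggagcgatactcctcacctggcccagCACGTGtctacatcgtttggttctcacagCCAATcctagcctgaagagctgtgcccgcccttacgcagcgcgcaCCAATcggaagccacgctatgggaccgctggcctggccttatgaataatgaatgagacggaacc
Hlf promoter, chr11:90390918-90391167, minus strand: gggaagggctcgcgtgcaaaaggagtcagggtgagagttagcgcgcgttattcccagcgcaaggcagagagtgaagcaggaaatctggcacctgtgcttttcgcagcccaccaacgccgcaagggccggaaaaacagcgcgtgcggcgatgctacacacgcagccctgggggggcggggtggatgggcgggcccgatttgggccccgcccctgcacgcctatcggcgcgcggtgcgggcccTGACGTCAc
Dbp promoter, chr7:45704997-45705087, plus strand: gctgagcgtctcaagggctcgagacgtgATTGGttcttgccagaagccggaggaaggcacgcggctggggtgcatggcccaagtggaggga

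Each Tef promoter held 1 E-box, at -127 to -122 upstream and at -138 to -133 downstream, a motif found in 6.02% of 32841 RefSeq promoter windows of the same length. The upstream Tef promoter opens the transcript Tef-201 and the downstream one opens Tef-006. The Hlf window held a CRE at -9 to -2, found in 1.55% of all windows, and the Dbp window held a CCAAT box at -222 to -218, found in 33.9%. The downstream Tef promoter held CCAAT boxes at -109 to -105 and at -64 to -60, and the upstream one held its reverse at -143 to -139, just before the bases shown. No matches overlapped. The letters of the D-box (TTATGTAA or TTACGTAA), of the TATA box (TATAAA), of the RORE core (AGGTCA) and of the variant E-box CACGTT were not in these 4 windows on either strand. They occur in 0.819%, 0.113%, 12.4%, 14.0% and 3.85% of all windows.

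Tef rose in MNR livers, whereas the differences of Hlf and Dbp did not pass the test over all genes. By litter, Tef stood at 78.1, 77.2, 69.9, 54.4 and 63.1 CPM (counts scaled to a common library total) in MNR litters A to E, against 40.0, 40.9, 33.8, 38.9 and 43.2 CPM in control litters A to E. The lowest MNR litter, D, lay above the highest control litter, E, so the groups did not overlap. Tef averaged 68.5 ± 9.98 CPM in MNR and 39.4 ± 3.48 CPM in control (SD, n = 5 litters each), a 1.74-fold difference. On the log2 scale the change was 0.80 (SE 0.10, 95% interval 0.58 to 1.02, edgeR adjusted p = 0.0257). Tef had the third lowest p of 17573 genes tested but only the rank 135 by size of the rise. Of the 3 members 1 rose, beside 0.415% of all genes called higher in MNR and 0.666% called in either direction. The share of all genes called lower in MNR was 0.25%. Complete separation of the litters occurred in 4.5% of all genes, in 2.28% with MNR above and in 2.23% with MNR below.

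The Tef levels of single fetuses did not overlap either, but the adjusted p of Tef lay close to the threshold of 0.05. The 10 MNR fetuses had 48.8 to 83.2 CPM of Tef (median 69.5), against 32.3 to 44.7 CPM (median 39.3) in the 10 control fetuses. Littermates share a dam, so single fetuses are not replicates. The log2 fold change was 0.74 with fetus 1 of each litter alone (edgeR adjusted p = 0.215) and 0.88 with fetus 2 alone (edgeR adjusted p = 0.00258). The difference was kept at a log2 fold change of 0.75 to 0.87 when each litter was left out in turn. The edgeR adjusted p was then 0.0657 without MNR litter A, 0.0605 without MNR B and 0.0653 without MNR E. It was 0.0687, 0.0661, 0.0521 and 0.0509 without control A, C, D and E, so the call was lost without each of these 7 litters. The adjusted p depends on the p-values of all genes, and in these 7 fits at most 2 genes passed in all. The adjusted p of Tef stayed under 0.05 without MNR C, MNR D or control B, where 30, 512 and 843 genes passed. The unadjusted p of Tef was at most 2.0e-05 in all 10 fits. In bulk liver a higher share of Tef-expressing cells and more Tef RNA per cell cannot be told apart. Nor can the diet and an unequal time of collection, for Tef or for the clock genes below.

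Hlf was moderately higher in most MNR litters without passing the test. It stood at 37.5, 37.6, 38.2, 34.8 and 42.8 CPM in MNR litters A to E, against 30.9, 31.7, 35.3, 34.4 and 31.5 CPM in control litters A to E. All MNR litters but D lay above the highest control litter, C. The means were 38.2 ± 2.92 CPM in MNR and 32.7 ± 1.97 CPM in control (SD, n = 5 litters each), a 1.17-fold difference. Its log2 fold change was 0.22 (SE 0.06, 95% interval 0.08 to 0.36, edgeR adjusted p = 0.0992). The call depends on the model: the edgeR adjusted p was 0.00522 with the 20 fetuses as separate libraries, which treats littermates as independent, the DESeq2 adjusted p was 0.0348 on the same litter sums, and limma-voom with the litter as a random effect gave 0.0253. Of the 10 MNR fetuses, 8 lay above the highest control fetus.

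Dbp, the member best known for its strong daily rhythm in adult liver, was the rarest of the 3 by far. It stood at 1.59, 2.14, 1.87, 1.40 and 1.35 CPM in MNR litters A to E, against 0.933, 1.05, 1.39, 1.37 and 1.07 CPM in control litters A to E. MNR litters A, B and C lay above the control litters, while MNR D lay just above and MNR E just below control litters C and D. The means were 1.67 ± 0.332 CPM in MNR and 1.16 ± 0.205 CPM in control (SD, n = 5 litters each), a 1.43-fold difference. On the log2 scale the change was 0.52 (SE 0.17, 95% interval 0.15 to 0.88, edgeR adjusted p = 0.128). These values rest on 52 to 85 counts per MNR litter and 39 to 69 per control litter. Counting error alone gives a coefficient of variation of 12.1% in MNR and 14.3% in control, against measured values of 19.9% and 17.7%. With the 20 fetuses as separate libraries the edgeR adjusted p of Dbp was 0.0243.

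Nfil3, the repressor that opposes the family at the D-box, did not pass either. It averaged 27.1 ± 3.35 CPM in MNR and 22.2 ± 1.90 CPM in control (SD, n = 5 litters each), with a log2 fold change of 0.29 (SE 0.09, 95% interval 0.09 to 0.48, edgeR adjusted p = 0.12). It ranged over 23.2 to 30.6 CPM in MNR litters and 19.3 to 24.6 CPM in control litters, and MNR litters C and D lay within the range of the control litters.

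**Figure D1:**
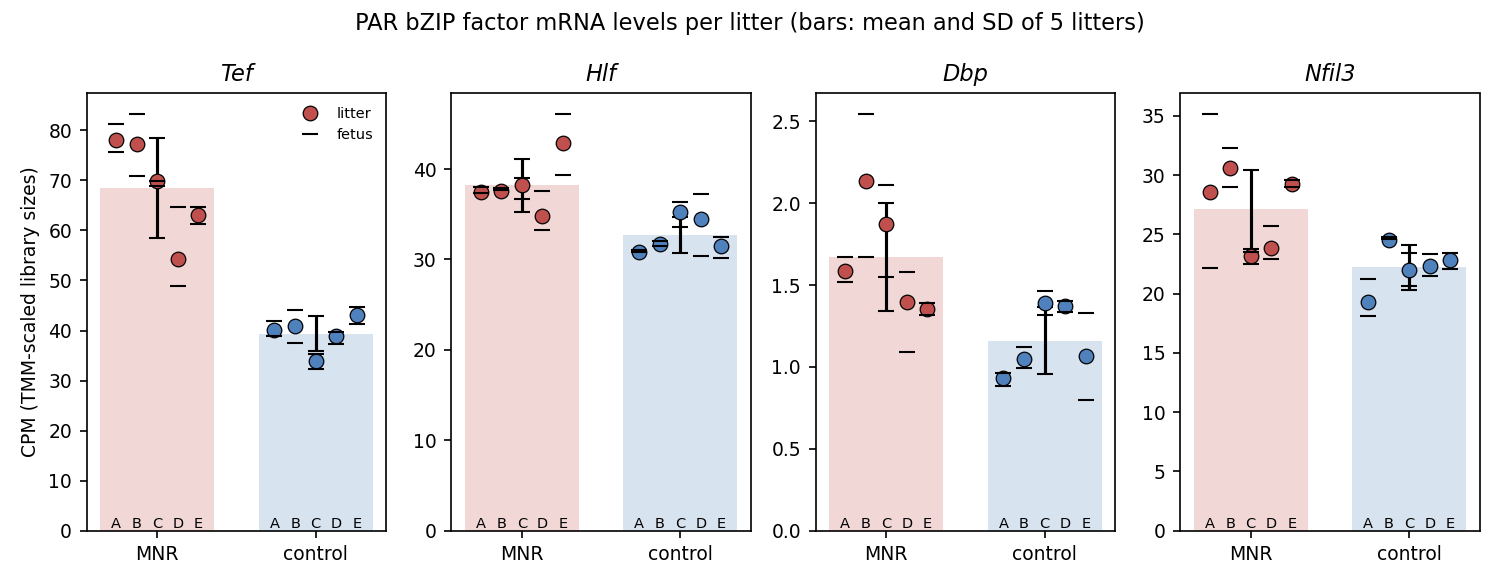
Level in CPM of Tef, Hlf, Dbp and Nfil3 in MNR litters A to E and control litters A to E. Points are litters, dashes are single fetuses, and bars show the mean and SD of 5 litters. The Tef points of MNR lie between 54.4 and 78.1 CPM, all above the control points, while the groups overlap for the other 3 genes.

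Per length of transcript, Tef was the most abundant member and Dbp the least in each group. CPM per kilobase of the longest coding transcript was 15.6 ± 2.27 for Tef in MNR and 8.95 ± 0.792 in control. For Hlf it was 6.65 ± 0.509 in MNR and 5.70 ± 0.344 in control, and for Dbp 0.934 ± 0.185 in MNR and 0.649 ± 0.115 in control (SD, n = 5 litters each). The ranges over litters of neighbours in this order did not overlap within either group. Nfil3 ranged over 11.5 to 15.1 in MNR and 9.53 to 12.1 in control on the same scale, below Tef in the mean of MNR and above Tef in the mean of control. Among 14819 coding genes ranked by their mean level per kilobase over all litters, Tef came at 3960, Hlf at 6663 and Dbp at 12336.

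The share of each member in the summed level of the family is given as a description. Tef made up 67.0 ± 3.04% of the 3 members summed per kilobase in MNR and 58.4 ± 3.77% in control (SD, n = 5 litters each). The Hlf share was 28.9 ± 3.27% in MNR and 37.3 ± 3.01% in control, and the Dbp share 4.02 ± 0.584% in MNR and 4.25 ± 0.807% in control. The sum of the 3 activators over their antagonist Nfil3, per kilobase, was 1.74 ± 0.195 in MNR, with a range of 1.56 to 2.06, and 1.40 ± 0.112 in control, with a range of 1.27 to 1.57.

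Whether the members changed by unequal amounts was tested on their ratios, which do not depend on the scaling of the libraries. The ratio of Tef to Hlf in CPM was 2.08, 2.05, 1.83, 1.56 and 1.47 in MNR litters A to E, against 1.30, 1.29, 0.959, 1.13 and 1.37 in control litters A to E. The groups did not overlap. The mean log2 ratio was 0.83 ± 0.23 in MNR and 0.26 ± 0.21 in control, a difference of 0.57 (exact permutation test, two-sided, p = 0.00794, adjusted over 3 pairs 0.0238). This p is the smallest that 5 litters against 5 can give. The log2 ratio of Tef to Dbp was 5.33 ± 0.20 in MNR and 5.04 ± 0.35 in control, a difference of 0.29 (exact permutation test, p = 0.159, adjusted 0.159). The log2 ratio of Dbp to Hlf was -4.49 ± 0.31 in MNR and -4.78 ± 0.16 in control, a difference of 0.28 (exact permutation test, p = 0.111, adjusted 0.159). Of the 10 comparisons of Dbp to Hlf that left out 1 litter each, only 1 passed. It was the one without MNR litter E, with a difference of 0.39 (exact permutation test, adjusted p = 0.0238). Tef thus rose by more than Hlf, while an unequal change of Dbp and either partner was not shown.

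**Figure D2:**
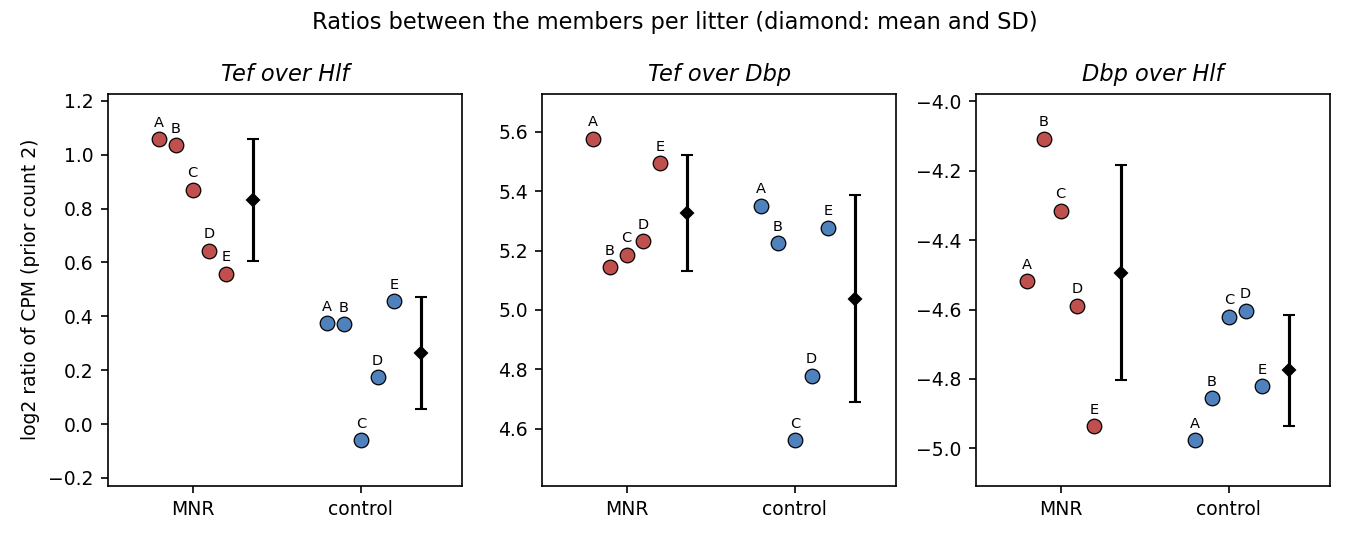
Log2 ratio of the CPM values of each pair of members in MNR litters A to E and control litters A to E, computed with a prior count of 2 and drawn on axes of different range. Points are litters, and diamonds with bars are the mean and SD. The Tef over Hlf points do not overlap between the groups, and those of the other pairs do.

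Members moved little together among litters of a group. After the group mean was taken off, the correlation of log2 CPM over the 10 litters was -0.15 between Tef and Hlf, 0.21 between Tef and Dbp and 0.30 between Hlf and Dbp. These values describe 10 points that share their libraries and scaling. On the log2 scale the median gap between littermates in Tef was 0.10 in MNR and 0.11 in control, and the widest gap was 0.41 between the fetuses of MNR litter D. The median littermate gap of Hlf was 0.09 in MNR and 0.11 in control. For Dbp it was 0.44 in MNR and 0.15 in control, with 17 to 54 counts per MNR fetus and 14 to 39 per control fetus.

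The deposited files count transcripts, and the rise of Tef was seen in most of its transcripts. All 11 annotated Tef transcripts had counts, 8 were abundant enough to be tested, and 5 of the 8 rose, beside 0.305% of 55494 transcripts called higher in MNR and 0.575% called in either direction. Tef-201, from the upstream promoter, stood at 23.0, 22.2, 20.5, 16.3 and 17.4 CPM in MNR litters A to E, against 11.8, 12.3, 9.89, 10.7 and 12.1 CPM in control litters A to E. The groups did not overlap, and its log2 fold change was 0.81 (edgeR adjusted p = 0.0113). Of the 8, 7 had every MNR litter above the control litters, beside 1.68% of all transcripts tested. Tef-006, from the downstream promoter, averaged 18.4 ± 2.73 CPM in MNR and 11.2 ± 0.848 CPM in control (SD, n = 5 litters each), 0.72 higher on the log2 scale (edgeR adjusted p = 0.0189). Tef-001, which holds the largest share of Tef counts, averaged 20.3 ± 2.85 CPM in MNR and 12.1 ± 1.24 CPM in control, 0.75 higher on the log2 scale (edgeR adjusted p = 0.0189). Tef-201 has 0 bases that lie in no other Tef transcript and Tef-006 has 307 of 4079, so a rise from each promoter by itself cannot be told apart from the rise of the gene.

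The other Tef transcripts that rose are annotated as retaining an intron. Tef-005 stood at 5.01, 5.12, 4.69, 2.87 and 4.83 CPM in MNR litters A to E, against 2.28, 2.17, 1.80, 2.01 and 2.75 CPM in control litters A to E. MNR litter D came closest to the control litters. The log2 fold change was 1.03 for Tef-005 (edgeR adjusted p = 0.0192) and 0.93 for Tef-010 (edgeR adjusted p = 0.0189). Together they made up 11.6 ± 0.690% of Tef counts in MNR, with a range of 10.4% to 12.2%, and 10.1 ± 0.387% in control, with a range of 9.66% to 10.6%. This share was looked at after the transcript values were seen and was not tested.

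No transcript of Hlf or Dbp passed the edgeR test. The 5 tested Hlf transcripts had log2 fold changes of 0.12 to 0.32. The lowest p was that of Hlf-001 (edgeR, unadjusted p = 0.00424, adjusted p = 0.113), followed by Hlf-201 (edgeR, unadjusted p = 0.0227, adjusted p = 0.224). Only Dbp-001 was abundant enough among the 5 transcripts of Dbp, at 0.44 on the log2 scale (edgeR adjusted p = 0.287). The share of a gene's counts held by its leading transcript did not pass the test for any member. For Tef-001 it was 29.7 ± 0.585% in MNR and 30.5 ± 1.03% in control (exact permutation test, adjusted p = 0.571). For Hlf-201 it was 34.9 ± 1.36% in MNR and 35.1 ± 1.36% in control (exact permutation test, adjusted p = 0.802), and for Dbp-001 52.0 ± 6.07% in MNR and 55.0 ± 7.99% in control (exact permutation test, adjusted p = 0.802). Transcripts of a gene share most of their exons, and the sources used here do not say how reads were divided among them, so these transcripts are not independent of each other.

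**Figure D3:**
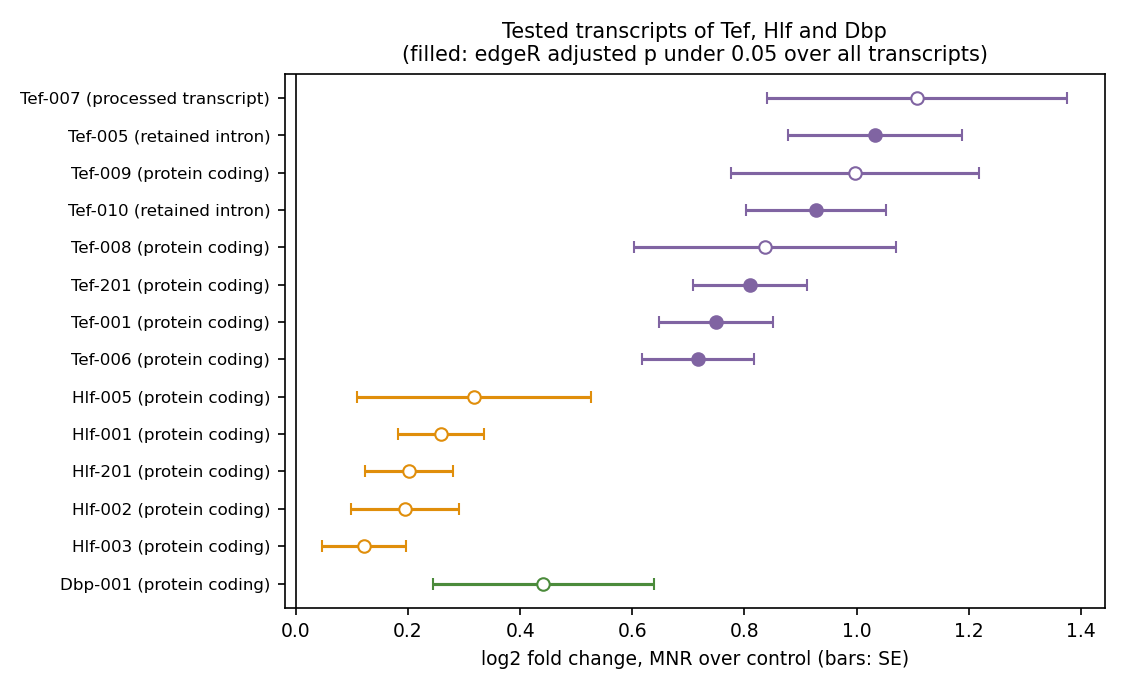
Log2 fold change, MNR over control, of the 14 tested transcripts of Tef, Hlf and Dbp with its SE, from 5 litters per group. Filled points passed an edgeR adjusted p of 0.05 over all transcripts tested: they are 5 of the 8 Tef transcripts and none of Hlf or Dbp.

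Overlapping genes bear on 2 members. Dbp, at chr7:52960458-52965525 on the plus strand of mm9, shares 491 exon bases, 16.7% of its own, with Sphk2 on the opposite strand, which encodes a sphingosine kinase. Sphk2 averaged 31.0 ± 4.39 CPM in MNR and 29.7 ± 1.38 CPM in control (log2 fold change 0.06, edgeR adjusted p = 0.742), far above Dbp itself. The library kit keeps the strand, but the use of strand in counting is not given, so reads of Dbp and Sphk2 in the shared bases cannot be told apart. Tef, at chr15:81632851-81657291 on the plus strand, shares 193 bases, 2.45% of its exons, with the predicted gene Gm17597, which had 37 counts in all 20 fetuses together. Hlf, at chr11:90197849-90252231 on the minus strand, shares exon bases with no other gene that was counted.

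The genes that act upstream of the family in the adult clock did not pass. None of the 6 clock activators passed in edgeR, beside 0.415% of all genes higher and 0.25% lower. Of the 6, 3 had an unadjusted edgeR p under 0.05, beside 19.6% of all genes, and 1 passed in DESeq2 (Npas2, lower), beside 3.73% of all genes called higher and 2.89% called lower by that tool. Their median log2 fold change was -0.23, against -0.0027 over all genes. Arntl, which encodes BMAL1, averaged 24.5 ± 2.29 CPM in MNR and 29.6 ± 3.57 CPM in control (log2 fold change -0.27, edgeR adjusted p = 0.139). Clock, its partner, averaged 24.7 ± 2.28 CPM in MNR and 22.7 ± 2.25 CPM in control (log2 fold change 0.13, edgeR adjusted p = 0.435). Npas2, an alternative partner of BMAL1, averaged 2.12 ± 0.324 CPM in MNR and 3.51 ± 0.700 CPM in control, with every MNR litter below the control litters (log2 fold change -0.73, edgeR adjusted p = 0.0564).

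Among the clock repressors, 2 of 15 rose in edgeR, beside 0.415% of all genes, 0 fell, and DESeq2 called 4 higher, beside 3.73%. Of the 15, 12 had a positive log2 fold change, beside 49.4% of all genes, and 10 an unadjusted edgeR p under 0.05, beside 19.6%. The median log2 fold change was 0.28. Those that rose were Nr1d1 and Nr1d2, which encode the nuclear receptors REV-ERB alpha and beta. Nr1d1 stood at 9.16, 9.17, 9.39, 4.40 and 6.82 CPM in MNR litters A to E, against 1.41, 2.15, 1.58, 0.775 and 1.07 CPM in control litters A to E. Its log2 fold change was 2.49 (edgeR adjusted p = 0.018), and that of Nr1d2 was 1.30 (edgeR adjusted p = 0.0257). MNR litter D was the lowest of the MNR litters for Tef, Nr1d1 and Nr1d2 alike. The same litter was also the lowest for Hlf, Per2, Per3, Cry1 and Cry2, none of which passed in edgeR. It was not the lowest for Dbp, Nfil3, Per1 or Clock, and it was the highest for Arntl and Npas2. Outside the clock lists, MNR litter D was the lowest for the progenitor marker Kit and for Por, and the highest for Sphk2. Within groups the correlation of Tef over the 10 litters was 0.47 with Nr1d1, 0.37 with Nr1d2 and -0.50 with Arntl, beside 0.63 with the progenitor marker Kit and -0.49 with Sphk2, which are no clock genes.

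The period and cryptochrome genes, whose proteins inhibit CLOCK and BMAL1, did not pass in edgeR, and DESeq2 called Per1 and Cry2 higher. The log2 fold change was 0.32 for Per1 (edgeR adjusted p = 0.112), -0.03 for Per2 (edgeR adjusted p = 0.922) and 0.35 for Per3 (edgeR adjusted p = 0.139). It was -0.13 for Cry1 (edgeR adjusted p = 0.471) and 0.28 for Cry2 (edgeR adjusted p = 0.101). Per1 averaged 73.6 ± 7.97 CPM in MNR and 58.8 ± 7.98 CPM in control. A list of 8 clock genes known for D-boxes in their control regions holds the periods, Cry1 and the REV-ERB genes, among others. All 8 are also on the activator or repressor lists above. Of the 8, the same 2, Nr1d1 and Nr1d2, rose and 0 fell, beside 0.415% and 0.25% of all genes. The median log2 fold change was 0.30. An unadjusted edgeR p under 0.05 was seen in 5 of the 8, beside 19.6% of all genes, and DESeq2 called 3 higher, beside 3.73%.

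**Figure D4:**
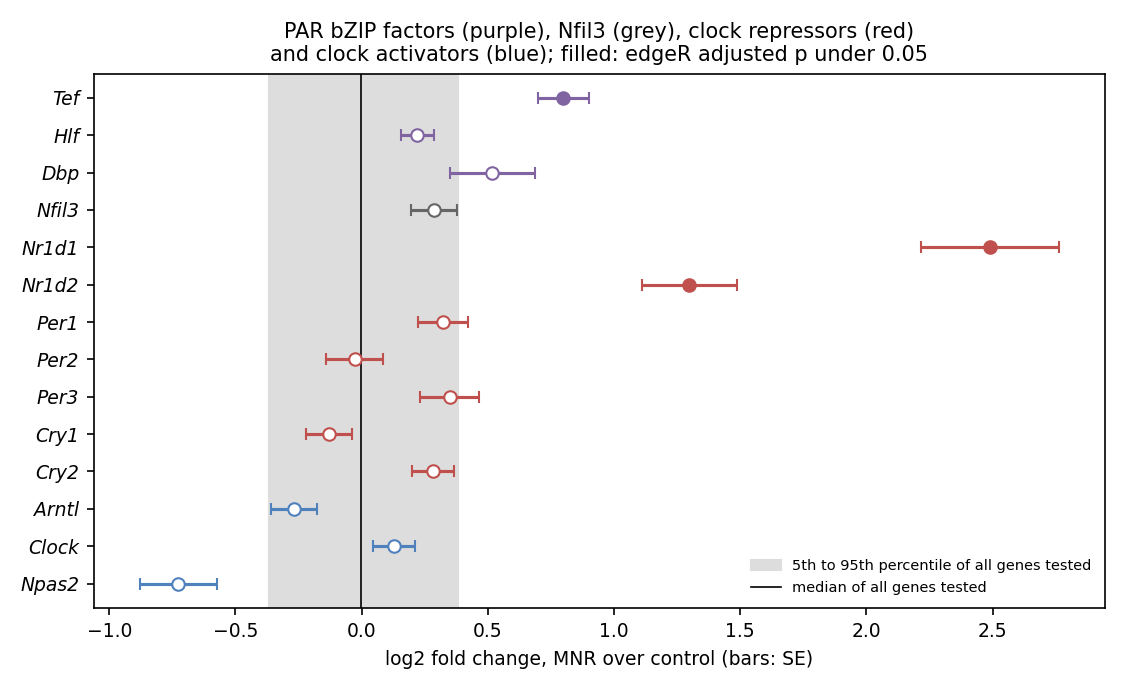
Log2 fold change, MNR over control, with its SE for the 3 PAR bZIP genes, Nfil3 and 10 clock genes. Filled points passed an edgeR adjusted p of 0.05, and the grey band spans the 5th to the 95th percentile of all genes tested, -0.36 to 0.38. Tef, Nr1d1 and Nr1d2 are filled and lie right of the band, Dbp lies right of it unfilled, Npas2 lies left of it unfilled, and Hlf and Nfil3 lie inside it.

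Known liver targets of the family did not pass the edgeR test as single genes. Of 17 listed genes, mostly known from adult mice that lack all 3 factors, 16 were tested, 0 rose and 0 fell, beside 0.415% and 0.25% of all genes. Of the 16, 5 had an unadjusted edgeR p under 0.05, beside 19.6% of all genes. DESeq2 called 4 higher, Por, Cyp4a10, Alas1 and Ppara, beside 3.73% of all genes. The remaining gene of these 5, named after its value was seen, was Pdxk, which encodes a kinase of vitamin B6 and had a log2 fold change of -0.24, with an edgeR adjusted p of 0.191. The log2 fold change was positive for 10 of the 16, beside 49.4% of all genes, with a median of 0.20, and Cyp2b10 was too low to be tested. Por, the reductase that supplies electrons to cytochromes P450, stood at 642, 498, 522, 463 and 677 CPM in MNR litters A to E, against 333, 461, 373, 285 and 396 CPM in control litters A to E. The lowest MNR litter, D, lay just above the highest control litter, B. The log2 fold change of Por was 0.60 (edgeR adjusted p = 0.0618), that of the fatty acid hydroxylase gene Cyp4a10 0.74 (edgeR adjusted p = 0.114), and that of Alas1, which encodes an enzyme of heme synthesis, 0.39 (edgeR adjusted p = 0.115). Ppara, which encodes a nuclear receptor of fatty acid breakdown, averaged 133 ± 1.62 CPM in MNR and 117 ± 9.38 CPM in control (log2 fold change 0.19, edgeR adjusted p = 0.121).

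For each member the genes whose level followed it most closely among litters of a group were looked up among 11459 genes with a mean of at least 5 CPM. For Tef these were Ccdc6 (r = 0.94), Khnyn (r = 0.92), Tbc1d8 (r = 0.92), Tet2 (r = 0.92) and Hipk2 (r = 0.92). Of these 5, Ccdc6 rose as well, by 0.44 on the log2 scale (edgeR adjusted p = 0.0286), beside 0.415% of all genes called higher. Tbc1d8 had a larger log2 fold change, 0.71, without passing (edgeR adjusted p = 0.0576). For Hlf they were Polr3e (r = 0.98), Hspa4 (r = 0.96), Tmem110 (r = 0.94), Gpt2 (r = 0.93) and Tspan4 (r = 0.92), and for Dbp Epcam (r = 0.93), Rbm15 (r = 0.87), Igtp (r = 0.87), Rfxap (r = 0.87) and Arhgap44 (r = 0.86). No gene was shared between the 3 lists. These correlations rest on 10 litters that share library and depth and are the highest of all those genes, so they carry no test.

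Depth was similar in both groups, with 16703824 to 28016953 counts per fetus in MNR (median 19473938) and 14925778 to 27848100 in control (median 20016884). Over all genes 117 passed, 73 higher and 44 lower in MNR, or 68 higher and 110 lower with upper-quartile scaling, under which the log2 fold change of Tef was 0.77 (edgeR adjusted p = 0.03). The tissue carried its markers: the summed hepatocyte list and the summed erythroid list overlapped between the groups, at 22653 to 30519 CPM in MNR and 21910 to 34801 CPM in control for the erythroid list. With the erythroid level as a covariate the log2 fold change of Tef was 0.81 (edgeR adjusted p = 0.0183). None of the 12 blood stem and progenitor markers passed in edgeR (2 at an unadjusted p under 0.05, beside 19.6% of all genes, and 2 called higher by DESeq2, among them Kit, beside 3.73%), and their summed level was 143 to 164 CPM in MNR and 134 to 146 CPM in control. The highest rise among them was that of Kit, at 45.8 ± 6.60 CPM in MNR and 33.4 ± 2.74 CPM in control (log2 fold change 0.45, edgeR adjusted p = 0.0569). All 6 megakaryocyte and all 6 neutrophil markers had positive log2 fold changes, beside 49.4% of all genes, with medians of 0.22 and 0.26. None of these markers passed in edgeR (4 of each list at an unadjusted p under 0.05, beside 19.6% of all genes, and 2 and 1 called higher by DESeq2, beside 3.73%). All 6 stellate markers and 5 of 6 B precursor markers had negative log2 fold changes, with medians of -0.28 and -0.40, where 49.4% of all genes had a positive one. None of them passed in edgeR (3 of each list at an unadjusted p under 0.05, beside 19.6% of all genes, and 1 and 0 called lower by DESeq2, beside 2.89%). Summed, the megakaryocyte list stood at 294 to 353 CPM in MNR litters and 272 to 327 CPM in control litters, and the neutrophil list at 1447 to 2058 CPM in MNR and 1239 to 1487 CPM in control. The stellate list stood at 377 to 468 CPM in MNR and 388 to 507 CPM in control, and the B precursor list at 35.7 to 48.7 CPM in MNR and 37.2 to 69.2 CPM in control. The part of these cells in the values of the members was not tested. Transcripts of pancreatic acinar cells exceeded 100 CPM in 3 fetuses, 2 of MNR and 1 of control, and without these the log2 fold change was 0.81 for Tef (edgeR adjusted p = 0.0133), 0.24 for Hlf and 0.57 for Dbp.

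**Figure D5:**
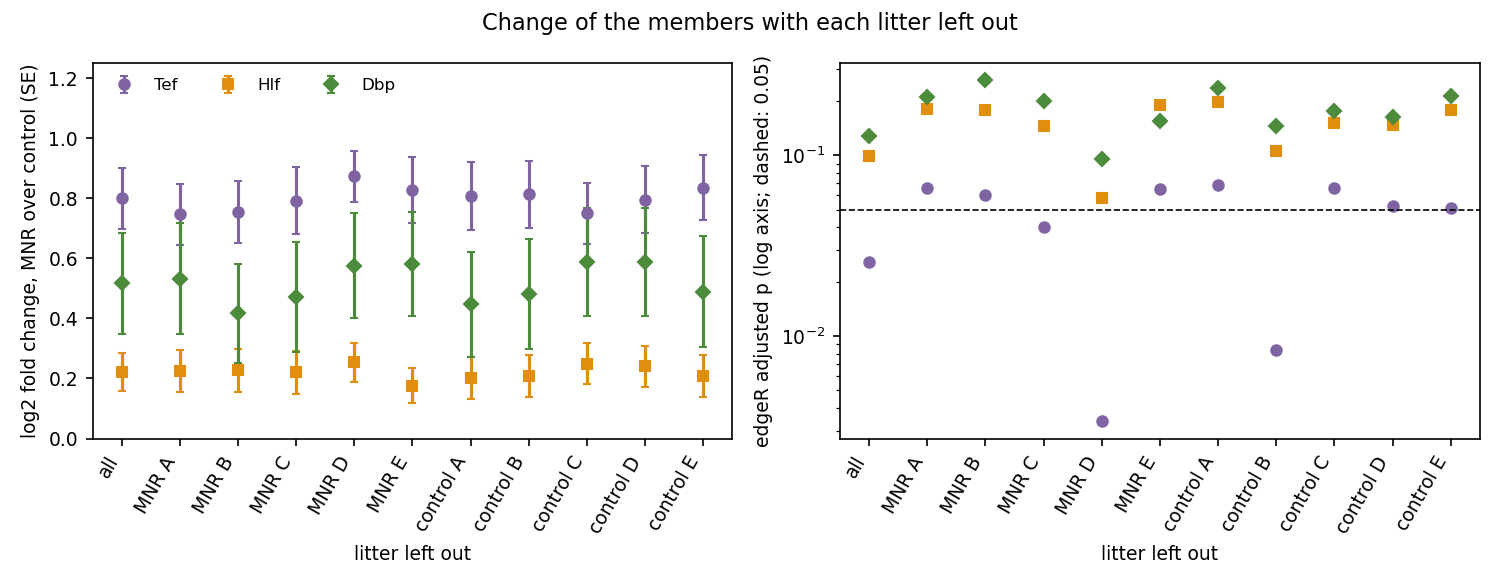
Log2 fold change of Tef, Hlf and Dbp, MNR over control, with its SE (left) and its edgeR adjusted p on a log axis (right), with all litters and with each of the 10 litters left out. The Tef fold changes lie between 0.75 and 0.87 while its adjusted p lies on either side of the dashed line at 0.05; Hlf and Dbp lie above the line throughout.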

How the data were processed

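Polyadenylated RNA was sequenced with a strand-preserving kit, per the labels' protocols. The authors deposited whole-number counts per transcript for each fetus, not normalised; a whole-series table of 20 columns was not used. The submitters' processing notes name Bowtie2, FastQC, edgeR and DESeq2, and the genome mm9; the sources used here do not give the counting tool, the versions or the treatment of strand and of reads matching several places. Here the counts were summed to genes (GENCODE M1 annotation of mm9) and to litters; transcripts matching no gene, 0.0788% to 0.154% of counts, were left out. edgeR 4.0.16 (filterByExpr, minimum count 10, TMM, quasi-likelihood test, two-sided) was run over all genes and over all transcripts, with p-values adjusted by Benjamini and Hochberg's method and called under 0.05. CPM values use TMM-scaled library sizes; log2 values use a prior count of 2. Ratios and shares were compared by exact permutation of litters. The p-values set the difference of the groups against the spread between litters. In the fits on 20 separate fetuses they rest on the spread between fetuses, with littermates taken as independent. DESeq2 1.42.0, limma 3.58.1, other scalings, filters and units of replication were tried, and each litter was left out. Named genes were the members, Nfil3, 10 clock genes, up to 4 genes of smallest p per other list, the 5 genes most like each member and overlapping genes; 1 marker gene is not reported here. The members and lists were chosen with earlier results of these data known. The test was checked on simulated counts. Promoters came from RefSeq.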

Additional observations from a re-analysis of the deposited data

Results flagged for a closer look

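Of 28 groups of values of the members examined, 2 held a sample far from the others, where chance gives about 1 in 20. Hlf stood at 46.1 CPM in fetus 2 of MNR litter E, the highest of 10 MNR fetuses, with a gap to the next of 0.525 of the group's range; its littermate had 39.4 CPM. Without MNR litter E the log2 fold change of Hlf was 0.18. Dbp-001 held 69.2% of the Dbp counts in control litter B, the highest of 5 control litters, on 39 counts of the gene in all.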

How the results depend on the processing

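Tef, Hlf and Dbp kept a higher level in MNR under all alternatives run; with all litters kept, their log2 fold changes were 0.74 to 0.88, 0.19 to 0.27 and 0.42 to 0.58. With fetus 1 of each litter alone Tef stood at 0.74 (edgeR adjusted p = 0.215). Hlf passed with DESeq2 (0.22), with 20 separate fetuses (0.23, edgeR) and with limma-voom (0.23), and Dbp with 20 separate fetuses (0.50). Leaving out each litter gave 0.75 to 0.87 for Tef, 0.18 to 0.25 for Hlf, 0.42 to 0.59 for Dbp, 0.49 to 0.64 for the log2 ratio of Tef to Hlf, 0.17 to 0.37 for Tef to Dbp and 0.19 to 0.39 for Dbp to Hlf. The genes past the threshold numbered 1163 with DESeq2, 178 with upper-quartile scaling, 2301 with 20 separate fetuses, 1088 with limma-voom, 0 with fetus 1 alone (1699 at an unadjusted edgeR p under 0.05), 499 with fetus 2 alone, 0 to 843 without 1 litter, and 215 without the acinar fetuses, an alternative chosen after seeing the data. Litters of the same letter correlated at -0.01 to 0.18 in their deviations and share only a letter; with the letter as a replicate block 232 genes passed and Tef stood at 0.79 (edgeR adjusted p = 0.0164). The difference in leading transcript share, in percentage points, was 1.05 for Hlf and 1.47 for Dbp with fetus 1 alone, and ranged over litters left out from -1.05 to -0.40 for Tef, -0.58 to 0.34 for Hlf and -4.87 to 0.52 for Dbp, the last without control litter B; the cause was not tested. Depth limits Dbp most.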
